A study of Homo sapiens with 21 samples.

Results

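Human chromosome 19 holds the largest collection of KRAB zinc finger genes in the genome. The transcripts of its ZNF genes, most but not all with a KRAB box-like pattern, were followed here through tunicamycin treatment of a leukaemia line and a kidney line. Members were the protein-coding genes of chromosome 19 named ZNF and a number, found by matching Ensembl gene identifiers to GENCODE release 44, that reached 1 CPM (counts per 1e6 counts of the library) in at least 8 of 21 libraries. The table listed 60671 genes, of which 14012 were tested, and 246 such zinc finger genes, of which 195 passed and were tested. Their median log2 fold change (log2FC) under tunicamycin was 0.16 in OCI-AML3 cells at 4 h, 0.23 in OCI-AML3 cells at 24 h and 0.12 in HEK293T cells at 24 h, while it was -0.13 between DMSO at 24 h and DMSO at 4 h. The medians of all genes tested were -0.02, -0.01, -0.01 and -0.02 in the same comparisons. Once the GC content of the transcripts was corrected for, the 4 member medians were 0.12, 0.10, 0.07 and -0.02. With no filter beyond 1 count they were 0.04, 0.17, 0.11 and -0.07, over 234 of these genes, with medians of 0 over all genes.

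A zinc finger protein of this kind binds DNA through a row of small zinc-holding loops, each reading a few bases. In most of them a KRAB box at the amino end recruits TRIM28, a scaffold that brings the histone methyltransferase SETDB1, HP1 proteins and deacetylases, and so lays down silent chromatin. Many of these genes lie side by side in clusters that grew by duplication, and many of their products silence transposable elements.

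RNA was sequenced from 2 established human lines, OCI-AML3, an acute myeloid leukaemia line, and HEK293T, a transformed embryonic kidney line, giving 7 groups of 3 libraries. The leukaemia line was sampled untreated at 0 h and after 4 or 24 h in the solvent DMSO or in 1 µg/mL tunicamycin, and the kidney line after 24 h in DMSO or in 1 µg/mL tunicamycin. Tunicamycin blocks N-linked glycosylation, so that misfolded proteins build up in the endoplasmic reticulum and the unfolded protein response starts. Each cell type was represented by a single line, and the labels give replicate numbers without saying that libraries came from separate cultures, so p-values measure the spread between these libraries.

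Promoters were compared to see which short sequences members share, because the response to tunicamycin is known to act through a few short DNA elements. Of the 195 members, 174 matched a RefSeq promoter (GRCh38.p14, 250 bases before to 50 after the start). The letters searched, on both strands, were CCAAT (the CCAAT box, which is also part of the ERSE, the element of the stress response read by ATF6), GGGCGG (SP1), CCGGAAG (ETS factors), TGACGT (the CRE core, which is also part of the XBP1 and ATF6 core TGACGTG), TGATGNAA (the CARE read by ATF4 and CHOP) and TATAAA (the TATA box). The ETS letters CCGGAAG stood in 46.0% of member promoters, against 20.2% of the 10302 promoters of tested genes and 10.7% of all 27305 promoters. CCAAT stood in 54.6% against 36.8% of tested genes and 35.7% of all, whereas GGGCGG stood in 65.5% against 70.8% and 44.6%. The stress elements were few: TGATGNAA was found in 4 members (2.30%, against 1.69% of tested genes and 3.67% of all), which were ZNF460, ZNF486, ZNF536 and ZNF577, named after the match was seen. TGACGTG was found in 2 (1.15%, against 2.58% and 2.0%) and the ERSE in 1 (0.575%, against 0.136% and 0.0806%). TGACGT was found in 21 members (12.1%, against 11.9% and 8.32%), and TATAAA in 4 (2.30%, against 5.41% and 12%). A match is a description of the letters and not a shown binding site. The promoters of the genes on which the results below turn are printed in the direction of transcription, in lower case with every match on either strand in capitals: 3 of the genes that rose most at 4 h (ZNF555, ZNF222 and ZNF773), the next member along the chromosome from ZNF555, which fell (ZNF57), 2 genes that rose in all 3 tunicamycin comparisons (ZNF582 and ZNF181), and a gene that rose past 2-fold at both times in OCI-AML3 and holds the CARE letters (ZNF536). None of the 7 holds TGACGTG or the ERSE. The other carriers of the CARE letters did not all rise. With GC content corrected, log2FC at 4 and 24 h in OCI-AML3 was 0.69 and 0.04 for ZNF460 and 0.55 and -0.07 for ZNF486. It was -0.71 and 0.14 for ZNF577, against 1.42 and 1.65 for ZNF536, which had 0.14 in HEK293T. Whether these letters bear on the values was not tested.
ZNF555, chr19:2841225-2841524, plus strand, 5 CCAAT and 2 SP1 matches: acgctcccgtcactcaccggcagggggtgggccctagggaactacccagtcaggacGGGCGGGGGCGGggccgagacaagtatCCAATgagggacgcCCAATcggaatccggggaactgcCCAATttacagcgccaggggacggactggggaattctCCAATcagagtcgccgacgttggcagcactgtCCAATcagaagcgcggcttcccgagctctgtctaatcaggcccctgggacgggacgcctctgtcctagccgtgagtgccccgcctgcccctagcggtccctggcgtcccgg
ZNF57, chr19:2900678-2900977, plus strand, 4 CCAAT and 4 SP1 matches: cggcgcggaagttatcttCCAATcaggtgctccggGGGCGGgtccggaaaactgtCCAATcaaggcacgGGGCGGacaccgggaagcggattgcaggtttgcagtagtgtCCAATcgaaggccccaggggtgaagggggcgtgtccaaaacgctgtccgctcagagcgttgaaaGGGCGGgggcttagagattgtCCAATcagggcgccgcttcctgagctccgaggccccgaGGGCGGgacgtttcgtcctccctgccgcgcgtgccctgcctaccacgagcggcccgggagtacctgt
ZNF222, chr19:44025129-44025428, plus strand, 1 CRE core and 1 ETS match: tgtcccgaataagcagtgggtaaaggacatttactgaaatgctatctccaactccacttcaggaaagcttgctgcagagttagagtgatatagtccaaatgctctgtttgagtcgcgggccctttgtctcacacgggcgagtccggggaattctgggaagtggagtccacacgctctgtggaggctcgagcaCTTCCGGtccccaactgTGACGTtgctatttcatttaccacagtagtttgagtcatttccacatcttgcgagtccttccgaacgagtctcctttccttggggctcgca
ZNF773, chr19:57499688-57499987, plus strand, 2 CCAAT, 2 ETS and 1 SP1 matches: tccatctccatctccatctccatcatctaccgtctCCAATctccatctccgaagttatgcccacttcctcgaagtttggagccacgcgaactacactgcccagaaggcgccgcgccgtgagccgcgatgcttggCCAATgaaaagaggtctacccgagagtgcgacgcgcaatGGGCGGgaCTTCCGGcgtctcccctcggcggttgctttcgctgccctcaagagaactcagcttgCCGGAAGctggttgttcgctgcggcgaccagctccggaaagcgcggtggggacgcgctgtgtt
ZNF582, chr19:56393485-56393784, minus strand, 2 ETS matches: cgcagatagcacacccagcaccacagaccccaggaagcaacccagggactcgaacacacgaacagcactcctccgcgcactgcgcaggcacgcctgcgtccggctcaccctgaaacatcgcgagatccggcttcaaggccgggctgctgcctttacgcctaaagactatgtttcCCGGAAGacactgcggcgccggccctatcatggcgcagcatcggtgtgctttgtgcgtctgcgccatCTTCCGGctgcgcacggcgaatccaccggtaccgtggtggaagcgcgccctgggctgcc
ZNF181, chr19:34733993-34734292, plus strand, 1 ETS and 2 SP1 matches: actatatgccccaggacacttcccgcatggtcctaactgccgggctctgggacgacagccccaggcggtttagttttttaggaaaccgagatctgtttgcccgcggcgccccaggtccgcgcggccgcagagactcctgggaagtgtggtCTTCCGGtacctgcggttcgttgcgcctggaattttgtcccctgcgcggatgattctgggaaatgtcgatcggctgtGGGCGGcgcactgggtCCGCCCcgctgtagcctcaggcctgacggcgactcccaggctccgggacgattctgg
ZNF536, chr19:30225342-30225641, plus strand, 1 CARE and 1 SP1 match: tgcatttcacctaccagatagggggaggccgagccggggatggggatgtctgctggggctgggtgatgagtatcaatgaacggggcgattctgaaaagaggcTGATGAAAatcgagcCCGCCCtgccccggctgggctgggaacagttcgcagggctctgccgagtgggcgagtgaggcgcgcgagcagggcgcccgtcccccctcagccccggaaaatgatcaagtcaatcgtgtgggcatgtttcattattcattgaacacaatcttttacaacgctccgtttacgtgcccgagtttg

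Libraries held 13838466 to 19961798 counts (median 16657737), of which the members took 28502 to 48285, or 0.195 to 0.264%. Where no read was counted, up to 3 counts remain possible, or 0.137 to 0.231 CPM depending on the library, a limit that covers counting error only. Levels below are CPM after TMM scaling (edgeR's trimmed mean of M values). The treatment was visible in every tunicamycin comparison: the chaperone gene HSPA5 rose by 3.29, 3.52 and 2.7 on the log2 scale in OCI-AML3 at 4 h, OCI-AML3 at 24 h and HEK293T at 24 h, and the stress transcription factor gene DDIT3 by 5.36, 4.33 and 3.69. The 8 myeloid markers summed to 1888 to 2465 CPM in OCI-AML3 against 3.08 to 7.44 CPM in HEK293T, and the 8 kidney line markers to 298 to 337 CPM in HEK293T against 5.31 to 8.08 CPM in OCI-AML3. Within the lists MPO was low in OCI-AML3, and LHX1 was no higher in HEK293T than in OCI-AML3. In bulk RNA, fewer cells of a type and less RNA per cell cannot be told apart.

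The members' proteins matched their name. Every member encoded at least 1 zinc finger, with a median of 12 and up to 31 in ZNF91, and 158 of the 195 carried a KRAB box-like pattern. Of the protein-coding genes whose symbol does not begin with Z, 0.577% carried it. That share leaves out the ZNF genes on other chromosomes and other zinc finger genes named with Z. Members were weakly expressed, with a median of 8.98 CPM (0.858 to 129) against 28.6 CPM for all genes tested. The median standard error (SE, worked back from the test statistic) of a member's log2FC was 0.16 to 0.17 in the 4 comparisons against 0.11 for all genes. All 21 values were whole numbers for 139 members, while the others hold estimated counts that are shared with near-identical or overlapping genes. Another tested gene overlapped 37 members on the same strand and 47 on the opposite strand, and whether counting used the strand is not given in the sources used here, so values of those members may hold reads of the neighbour.

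Most members were present in both lines, with 161 of the 195 at 1 CPM or more in all 21 libraries. Per kilobase of transcript in DMSO at 24 h, the highest levels in OCI-AML3 were those of ZNF787 (41.8 CPM per kb), ZNF428 (32.0) and ZNF146 (24.6), and in HEK293T those of ZNF146 (50.3), ZNF428 (42.9) and ZNF444 (17.5). Mean levels in DMSO at 24 h were over 10 times higher in OCI-AML3 for 15 members, with HEK293T means taken at no less than the level that 0 counts allow, and over 10 times higher in HEK293T for 3. These are 7.69% and 1.54% of the members, against 8.66% and 2.25% of all genes tested. The filter can pass a gene seen only in OCI-AML3 but not one seen only in HEK293T. The OCI-AML3 and HEK293T counts can therefore not be set against each other. ZNF558, ZNF93 and ZNF671, given next, passed through their OCI-AML3 libraries alone. ZNF558 stood at 9.79 ± 1.43 CPM (SD, n = 3) in OCI-AML3 and had 0 counts in all 6 HEK293T libraries, at least 61.0-fold higher, and ZNF93, a repressor of LINE-1 elements, stood at 7.82 ± 0.55 CPM and also had 0 counts there, at least 48.7-fold higher. ZNF671 stood at 15.2 ± 0.68 CPM in OCI-AML3 and at most 2 counts in any HEK293T library, at least 94.7-fold higher. On the HEK293T side were ZNF30 (7.32 ± 1.2 against 0.487 ± 0.249 CPM), ZNF536 (6.0 ± 0.17 against 0.593 ± 0.153 CPM) and ZNF577 (3.78 ± 0.23 against 0.340 ± 0.291 CPM). These contrasts of level compare one line with another and were not tested.

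Of the 51 genes below the filter, 31 reached 1 CPM in no library before TMM scaling, and 12 of these had 0 counts in all 21. A gene seen only in HEK293T cannot reach 8 libraries there, and 12 of the 51 reached 1 CPM in all 6 HEK293T libraries, among them ZNF772 (up to 10.8 CPM), ZNF841 (9.48) and ZNF112 (7.99). The nearest gene to the threshold was ZNF404, at 1 CPM in 7 libraries. The members therefore describe OCI-AML3 more fully than HEK293T, in which 8 members had 3 counts or fewer in every library.

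**Figure D1:**
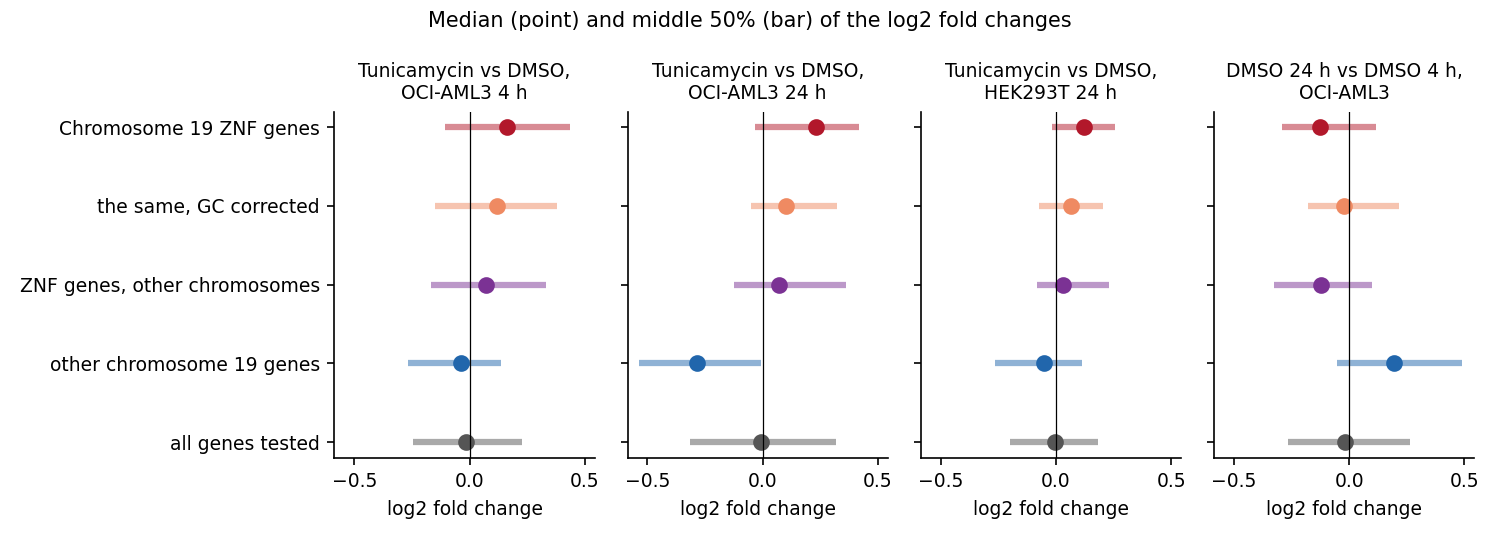
Median (point) and range from the 25th to the 75th percentile (bar) of the log2 fold changes of the chromosome 19 ZNF genes, of the same genes after GC correction, of ZNF genes on other chromosomes, of the other protein-coding genes of chromosome 19 and of all genes tested, in 4 comparisons. The members lie to the right of all genes in the 3 tunicamycin comparisons (0.16, 0.23 and 0.12) and to the left in DMSO 24 h against 4 h (-0.13), and the other genes of chromosome 19 lie on the opposite side.

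After 4 h of tunicamycin in OCI-AML3, members rose more often than they fell. At an adjusted p of at most 0.05 (edgeR's quasi-likelihood test, adjusted over all genes) 50 members were higher and 14 lower, that is 25.6% and 7.18%, where 18.5% of all genes tested were higher and 18.9% lower. Past both thresholds, adjusted p and a 2-fold change, 6 members were higher and 0 lower, against 3.45% and 1.47% of all genes. Of the 195 members 126 had a log2FC above 0, and for 64 all 3 tunicamycin libraries lay above all 3 DMSO libraries (22.9% of all genes), against 21 with all below (23.4%). The share of all genes above 0 is not given here, but their median lay just below 0.

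ZNF222 rose most. It stood at 2.86, 3.20 and 4.92 CPM in DMSO and at 7.99, 11.1 and 12.3 CPM in tunicamycin, with no overlap (log2FC 1.5, SE 0.20, adjusted p = 3.7e-06). ZNF555 went from 4.85, 4.86 and 5.95 CPM to 12.7, 13.2 and 15.8 CPM, the groups again well apart (log2FC 1.40, SE 0.13, adjusted p = 1.1e-08). ZNF536, a repressor of neuronal differentiation, was faint in DMSO at 0.532, 1.41 and 0.973 CPM and stood at 3.07, 2.52 and 2.03 CPM in tunicamycin, each above every DMSO library (log2FC 1.38, SE 0.28, adjusted p = 0.00044). Of the 21 values of ZNF222, ZNF536 and ZNF773, 20 each were not whole and each gene overlaps another on its strand, so their reads are in part assigned by estimation, whereas all values of ZNF555 were whole and no tested gene overlaps it.

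ZNF433 and ZNF773 also rose by more than 2-fold. ZNF433 had 3.39, 2.43 and 3.32 CPM in DMSO and 8.50, 6.16 and 7.84 CPM in tunicamycin (log2FC 1.29, SE 0.24, adjusted p = 0.00014). ZNF773 had 9.63, 10.9 and 10.1 CPM in DMSO and 23.0, 21.3 and 23.2 CPM in tunicamycin, the tightest of these groups (log2FC 1.13, SE 0.11, adjusted p = 4.9e-08). The sixth gene, ZNF575, was near the detection limit at 0.664, 0.640 and 0.630 CPM against 1.73, 1.17 and 1.89 CPM (log2FC 1.29, SE 0.43, adjusted p = 0.021), and its call was lost without DMSO 4 h replicate 2 or 3 or tunicamycin 4 h replicate 1 or 3 (adjusted p 0.051 to 0.070).

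The members that fell at 4 h did so by less than 2-fold. ZNF57, the next member after ZNF555 along the chromosome, fell from 4.65, 4.86 and 4.41 CPM to 2.62, 2.88 and 2.47 CPM without overlap (log2FC -0.80, SE 0.17, adjusted p = 0.00065). ZNF850 (log2FC -0.77, adjusted p = 0.0053), ZNF823 (-0.66, adjusted p = 0.0093), ZNF83 (-0.60, adjusted p = 0.020) and ZNF8 (-0.59, adjusted p = 0.00045) followed. Of these, the call of ZNF83 was lost without DMSO 4 h replicate 2 or 3 or tunicamycin 4 h replicate 1 or 2 (adjusted p 0.074 to 0.108). ZNF555 and ZNF57 thus went opposite ways.

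After 24 h of tunicamycin in OCI-AML3, 56 members were higher and 12 lower at the same adjusted p, that is 28.7% and 6.15%, where 23.5% of all genes were higher and 27.7% lower. Past both thresholds 3 were higher and 1 lower, against 4.05% and 2.26% of all genes. A log2FC above 0 was found for 143 members, where the median of all genes lay just below 0. The libraries did not overlap for 67 higher and 16 lower members (25% and 27.8% of all genes). Tunicamycin 24 h replicate 3 stood apart: its members had a median deviation of 0.22 from the line's mean, against 0.04 and 0.02 in replicates 1 and 2, while the other chromosome 19 genes stood at -0.27, against 0.01 and -0.04. Without this library 34 members were higher and 8 lower, where 21.3% and 20.4% of all genes were, and the median was 0.20. The few members past both thresholds also varied with single libraries, from 2 without DMSO 24 h replicate 3 to 8 without replicate 1 of either group, and were 7 without tunicamycin 24 h replicate 2. No share of all genes past both thresholds is given with a library left out, so these counts have no background to be set against.

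ZNF536 rose again, from 0.430, 0.733 and 0.616 CPM to 2.04, 2.01 and 1.2 CPM (log2FC 1.52, SE 0.34, adjusted p = 0.00073). ZNF763 had 1.79, 2.07 and 2.08 CPM in DMSO and 2.74, 4.17 and 5.66 CPM in tunicamycin (log2FC 1.09, SE 0.29, adjusted p = 0.0029), and 11 of its 21 values were not whole. ZNF345 had 2.01, 2.93 and 1.00 CPM in DMSO and 2.74, 3.57 and 5.77 CPM in tunicamycin (log2FC 1.02, SE 0.33, adjusted p = 0.013). The groups of ZNF536 and ZNF763 did not overlap, whereas those of ZNF345 did, and its call was lost without DMSO 24 h replicate 3 (adjusted p = 0.063) or tunicamycin 24 h replicate 3 (adjusted p = 0.121). ZNF555 stayed higher by less than 2-fold, at 10.3, 9.98 and 12.2 CPM against 5.81, 5.53 and 5.62 CPM (log2FC 0.94, SE 0.13, adjusted p = 4.5e-06).

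Among the members lower at 24 h, ZNF114 fell from 1.29, 1.73 and 2.39 CPM to 0.562, 0.745 and 0.762 CPM (log2FC -1.36, SE 0.40, adjusted p = 0.0069). Its groups did not overlap, but the call was lost without DMSO 24 h replicate 3 (log2FC -1.07, adjusted p = 0.051). ZNF71 fell from 16.9, 20.5 and 18.4 CPM to 12, 12.7 and 9.74 CPM (log2FC -0.70, SE 0.12, adjusted p = 4.4e-05), and ZNF787, which has no KRAB box-like pattern and the highest level per kb of the members in this line, from 82.6, 78.9 and 81.8 CPM to 61.3, 54.4 and 39.0 CPM (log2FC -0.66, SE 0.13, adjusted p = 0.00023). Both were lower in every tunicamycin library than in any DMSO library. After GC correction the value of ZNF787 was -0.36 (adjusted p = 0.00088). ZNF653 (log2FC -0.54, adjusted p = 0.0080) and ZNF442 (-0.77, adjusted p = 0.046) were less steady: ZNF653 lost its call without DMSO 24 h replicate 2 or 3 (adjusted p 0.062 and 0.064) and ZNF442 without any single library compared other than tunicamycin 24 h replicate 3 (0.069 to 0.172).

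In HEK293T cells at 24 h few members passed the test. At an adjusted p of at most 0.05, 10 members were higher and 2 lower, that is 5.13% and 1.03%, where 12.6% of all genes were higher and 13.1% lower. Past both thresholds 2 were higher and 0 lower, against 1.58% and 0.55%. Even so 133 members had a log2FC above 0 and 59 below, where the median of all genes lay just below 0. The libraries did not overlap for 43 higher and 11 lower members (23.4% and 25.7% of all genes). Fitted on the HEK293T libraries alone, 27 members were higher and 8 lower, where 20.9% and 20.4% of all genes were. Without TMM scaling 9 were higher and 5 lower, that is 4.62% and 2.56% against 10.9% and 16.2%, and without DMSO replicate 1 a total of 7 passed (19.4% of all genes).

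ZNF582, a gene whose promoter is often methylated in carcinomas, rose most in HEK293T. It had 1.54, 2.09 and 2.29 CPM in DMSO and 4.95, 4.41 and 4.90 CPM in tunicamycin, with a wide gap between the groups (log2FC 1.26, SE 0.22, adjusted p = 0.00013). ZNF550 had 7.75, 6.80 and 8.96 CPM against 17.2, 17.6 and 16.8 CPM, also far apart (log2FC 1.13, SE 0.15, adjusted p = 4.2e-06). ZNF181 had 7.85, 7.34 and 7.77 CPM against 10.2, 13.6 and 14.4 CPM (log2FC 0.73, SE 0.16, adjusted p = 0.0019). The 2 lower members were ZNF296, at 5.28, 5.78 and 4.39 CPM against 3.43, 3.27 and 3.29 CPM (log2FC -0.62, SE 0.15, adjusted p = 0.0029), and ZNF480 (log2FC -0.39, adjusted p = 0.031), whose call was lost without DMSO replicate 1 or 3 or tunicamycin replicate 1 or 2 (adjusted p 0.065 to 0.126). A gene on the opposite strand overlaps ZNF582, ZNF550 and ZNF181, and none overlaps ZNF296. The values of members farthest from 0 in HEK293T, ZNF253 at 3.75 and ZNF20 at -2.61, rest on a few counts and passed no test.

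**Figure D2:**
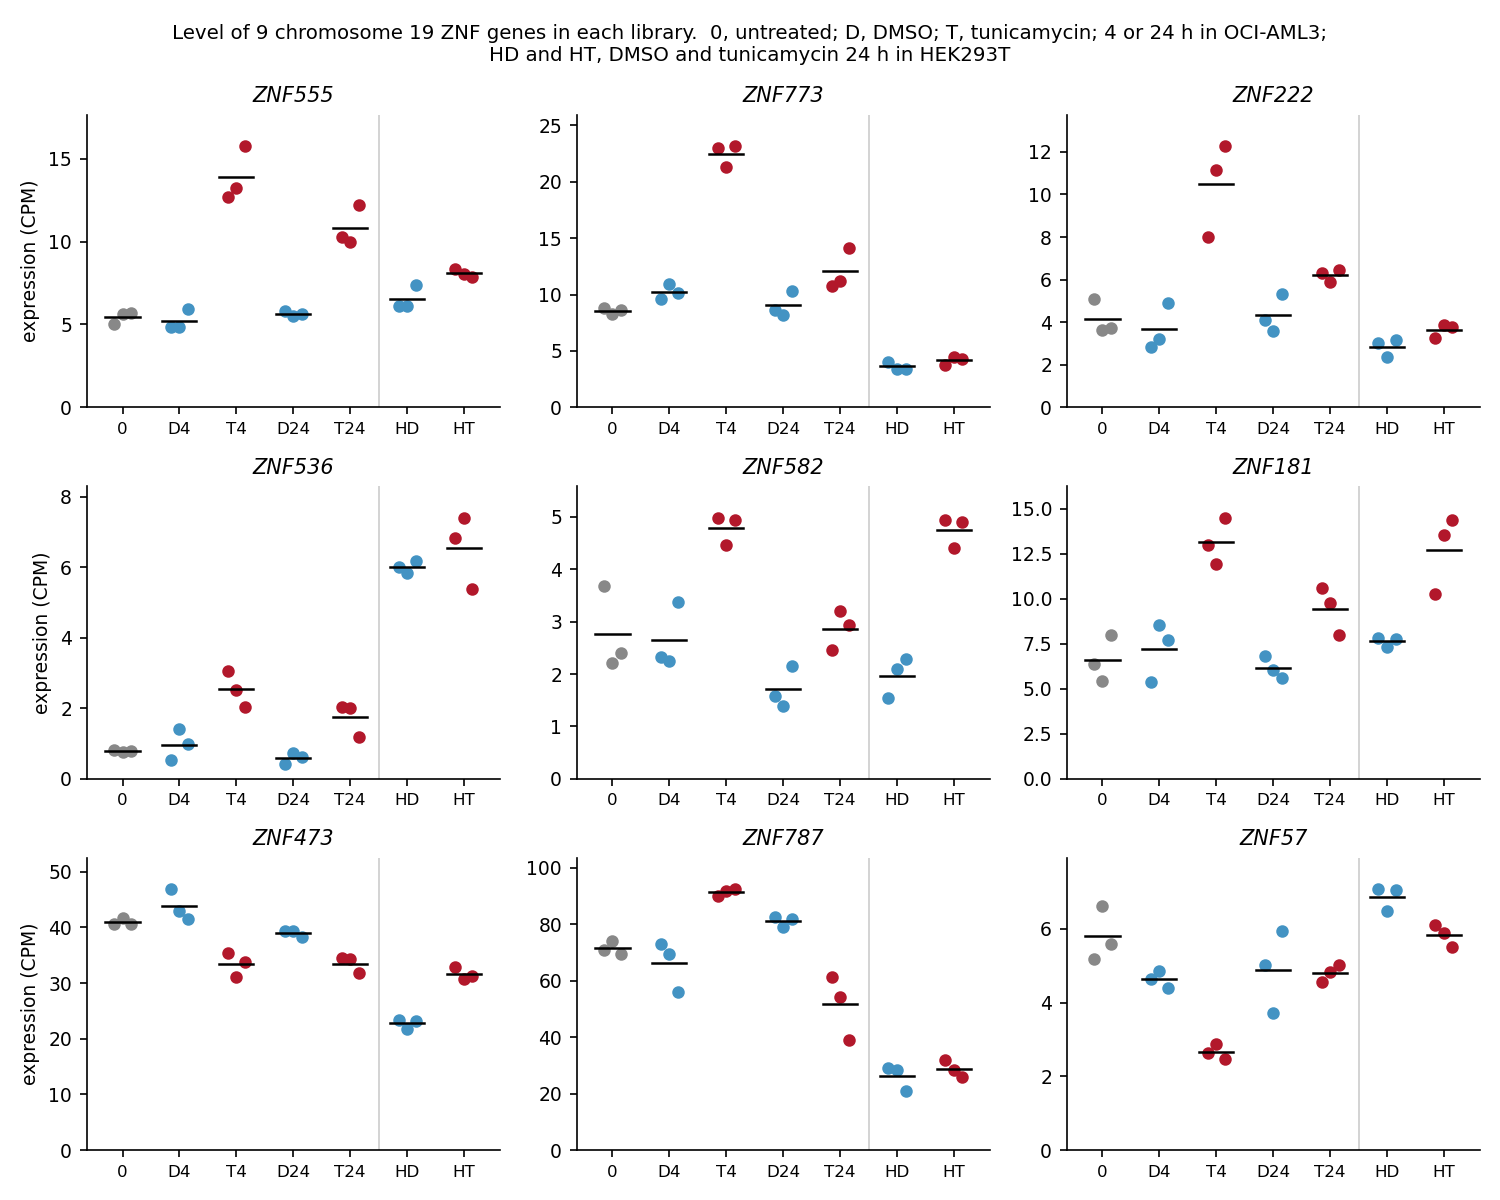
Level (CPM) of 9 members in each of the 21 libraries, with the mean of each group as a line; grey, untreated; blue, DMSO; red, tunicamycin. ZNF555, ZNF773 and ZNF222 are highest in tunicamycin at 4 h, ZNF582 and ZNF181 are higher with tunicamycin in all 3 comparisons, ZNF473 goes down in OCI-AML3 and up in HEK293T, and ZNF787 goes up at 4 h and down at 24 h.

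The 3 tunicamycin comparisons share no library, so their lists can be set side by side. Of the members higher at 4 h in OCI-AML3, 21 were also higher at 24 h, which is 42% of the 50 and 37.5% of the 56, where over all genes the shares were 50.1% and 39.6%. Of the 10 members higher in HEK293T, 5 were among those higher at 4 h (50% of the 10 and 10% of the 50, against 50.5% and 34.4% over all genes). There were 7 among those higher at 24 h in OCI-AML3 (70% of the 10 and 12.5% of the 56, against 54.8% and 29.5%). In all 3 comparisons 4 members were higher, or 2.05% of the members against 4.45% of all genes. By sign alone, 83 members (42.6%) were above 0 in all 3 against 20.5% of all genes, and 16 (8.21%) were below 0 in all 3 against 23.4%.

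The 4 members higher in every tunicamycin comparison were ZNF181, ZNF331, ZNF566 and ZNF582, of which ZNF566 is named for this count after its values were seen. ZNF331, an imprinted gene, had 17.1, 20.3 and 21.8 CPM in DMSO and 28.2, 28.6 and 31.2 CPM in tunicamycin at 4 h (log2FC 0.57, SE 0.10, adjusted p = 9.3e-05). It had 17.6, 16.7 and 19.5 against 21.5, 24.9 and 24.5 CPM at 24 h (log2FC 0.40, SE 0.10, adjusted p = 0.0025). In HEK293T it had only 2.98, 2.73 and 2.97 against 4.49, 3.54 and 4.77 CPM (log2FC 0.55, SE 0.15, adjusted p = 0.0077). The groups did not overlap in any of the 3. ZNF181 had log2FC of 0.85 (adjusted p = 0.00030), 0.61 (0.0070) and 0.73 (0.0019). ZNF582 had 0.85 (0.0035), 0.75 (0.015) and 1.26 (0.00013), and its value at 24 h in OCI-AML3 lost the call without DMSO 24 h replicate 2 (adjusted p = 0.055). ZNF566 had 0.59 (0.010), 0.43 (0.049) and 0.50 (0.025), so that its second value lies at the threshold. With GC content corrected that value of ZNF566 was 0.19 (adjusted p = 0.25), and the other 3 genes were still called in all 3 comparisons. With that correction 5 members were higher in all 3, these 3 with ZNF358 and ZNF837, and ZNF121 was lower in all 3. The added ones are named for this count after their values were seen. No share of all genes called in all 3 with that correction is given here, so these counts have no background to be set against. The 24 h value of ZNF358 in OCI-AML3 turned with the correction, from -0.07 (adjusted p = 0.58) to 0.22 (adjusted p = 0.0052).

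Some members moved in opposite directions. ZNF473, whose product takes part in the processing of replication-dependent histone transcripts, fell in OCI-AML3 from 46.9, 42.9 and 41.4 CPM to 35.4, 31.2 and 33.8 CPM at 4 h (log2FC -0.39, SE 0.07, adjusted p = 0.00011). At 24 h it stood at 39.3, 39.4 and 38.3 CPM in DMSO and at 34.4, 34.3 and 31.8 CPM in tunicamycin (log2FC -0.22, SE 0.07, adjusted p = 0.012), a call lost without any single library compared other than tunicamycin 24 h replicate 1 (adjusted p 0.061 to 0.147). In HEK293T it rose from 23.3, 21.7 and 23.3 CPM to 32.9, 30.7 and 31.4 CPM (log2FC 0.48, SE 0.07, adjusted p = 2.5e-05). The groups did not overlap in any of these comparisons, and the effects at 24 h differed between the lines by 0.70 (HEK293T minus OCI-AML3, SE 0.10, adjusted p = 2.3e-05). ZNF71 differed the same way, by 0.96 (adjusted p = 0.00028), with a log2FC of 0.25 in HEK293T that did not pass the test (adjusted p = 0.14).

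The difference between the lines at 24 h was tested for every member, and 7 effects were higher and 12 lower in HEK293T (3.59% and 6.15% of the members, against 15.9% and 10.9%, together 26.8%, of all genes). Without tunicamycin 24 h replicate 3 of OCI-AML3 the counts were 5 and 5 (9.91% and 10.3% of all genes). Totals were 11 and 12 without tunicamycin replicate 1 or 2 of HEK293T (21.8% and 21.9% of all genes), and without TMM scaling 4 were higher and 15 lower (10.8% and 15.5% of all genes). ZNF536 had the widest gap, -1.39 (SE 0.39, adjusted p = 0.012): in HEK293T it was already at 6.0, 5.84 and 6.17 CPM in DMSO and stood at 6.82, 7.41 and 5.37 CPM in tunicamycin. The call of ZNF555 in OCI-AML3 was not matched in HEK293T (log2FC 0.30, adjusted p = 0.084), and its effects differed by -0.64 (SE 0.18, adjusted p = 0.013). ZNF787 differed by 0.80 (SE 0.19, adjusted p = 0.0034), and by 0.56 with GC content corrected (adjusted p = 0.0014).

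Between 4 and 24 h in OCI-AML3 the tunicamycin effect became higher for 14 members and lower for 19 (7.18% and 9.74% of the members, against 15.1% and 20.3%, together 35.3%, of all genes). This split depends on scaling, since DESeq2 size factors gave 22 and 16 (17.1% and 17.9% of all genes) and library sizes without TMM 25 and 12 (19.8% and 15.4%). It was 9 and 18 without tunicamycin 24 h replicate 3 (14.6% and 16.1%). ZNF787 turned over: at 4 h it rose from 73.0, 69.4 and 55.8 CPM to 89.9, 91.6 and 92.4 CPM (log2FC 0.47, SE 0.13, adjusted p = 0.0057), and at 24 h it fell as given above, a difference of -1.13 (SE 0.18, adjusted p = 6.4e-05), or -0.93 with GC content corrected (adjusted p = 1.8e-06). ZNF442 did so at a low level, at 1.79, 1.73 and 2.75 against 3.77, 3.93 and 3.27 CPM at 4 h and 1.79, 1.47 and 1.39 against 0.703, 0.745 and 1.2 CPM at 24 h (difference -1.57, SE 0.40, adjusted p = 0.0043). Its single-time calls were lost with several libraries left out, and that of the difference was kept.

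Several early effects were smaller at 24 h. For ZNF433 the 24 h values were 1.58, 2.13 and 3.54 CPM in DMSO and 2.67, 2.08 and 3.05 CPM in tunicamycin, which overlap (log2FC 0.13, adjusted p = 0.72; difference -1.16, SE 0.36, adjusted p = 0.015). That difference was lost without DMSO 24 h replicate 3 (-0.76, adjusted p = 0.107), and so was that of ZNF222 (-0.97, adjusted p = 0.014 with all libraries and 0.063 without). At 24 h ZNF222 was still higher by 0.53 (adjusted p = 0.040), a call lost without DMSO 24 h replicate 1 or 2 or tunicamycin 24 h replicate 1 or 3 (0.052 to 0.12). ZNF773 was still higher too (log2FC 0.43, adjusted p = 0.0060), and its difference (-0.71, SE 0.17, adjusted p = 0.0023) was kept with each library left out. In the other direction, ZNF57 was no longer lower at 24 h, with 5.02, 3.73 and 5.93 CPM in DMSO and 4.57, 4.84 and 5.01 CPM in tunicamycin (log2FC -0.02, adjusted p = 0.98; difference 0.78, SE 0.23, adjusted p = 0.012). ZNF83 went from -0.60 to 0.49 (difference 1.10, SE 0.28, adjusted p = 0.0042), and ZNF224, a repressor of the aldolase A gene, from -0.34, which passed the test only with GC content corrected (adjusted p = 0.14 without and 0.025 with, at -0.42), to 0.56 (adjusted p = 0.011; difference 0.90, SE 0.25, adjusted p = 0.0080). The 24 h value of ZNF224 was 0.39 with GC content corrected (adjusted p = 0.026) and 0.32 without tunicamycin 24 h replicate 3 (adjusted p = 0.113), and that of ZNF83 lost its call without the same library or without DMSO 24 h replicate 1 or 3 (adjusted p 0.079 to 0.136).

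For the 9 members named for a known role, 5 of 27 values in the tunicamycin comparisons passed the test, those of ZNF331 in all 3 and of ZNF93 and ZNF224 at 24 h in OCI-AML3. Of all genes, 18.5% were higher and 18.9% lower at 4 h, 23.5% and 27.7% at 24 h, and 12.6% and 13.1% in HEK293T. The 27 include HEK293T values of ZNF93, with 0 counts there, and ZNF43, with at most 1 count in any library, which are too few to test. ZNF91, which represses SVA elements, had 4.78, 8.96 and 8.58 CPM in DMSO and 4.92, 6.57 and 6.10 CPM in tunicamycin at 4 h, with overlapping groups (log2FC -0.35, SE 0.23, adjusted p = 0.24), and 0.18 at 24 h (adjusted p = 0.52). ZNF93 rose at 24 h from 8.25, 7.19 and 8.01 CPM to 11.1, 12.3 and 12.4 CPM, without overlap (log2FC 0.61, SE 0.17, adjusted p = 0.0053), and stood at 0.18 at 4 h (adjusted p = 0.45). ZNF274, which binds the ends of other zinc finger genes and recruits SETDB1 there, had 0.19, 0.16 and 0.17 in the 3 tunicamycin comparisons, none past the test (adjusted p 0.099 to 0.14), while with GC content corrected its 24 h value in OCI-AML3 passed (0.24, adjusted p = 0.023). ZNF43, ZNF85, ZNF317 and ZNF382 also passed none, with values from -0.51 for ZNF43 at 4 h (adjusted p = 0.10) to 0.74 for ZNF85 in HEK293T (adjusted p = 0.093). After GC correction the 24 h values of ZNF91, ZNF43 and ZNF85 in OCI-AML3 turned below 0 (-0.06, -0.07 and -0.15, from 0.18, 0.20 and 0.09), none past the test with or without it. In the same fit ZNF43 passed at 4 h (-0.62, adjusted p = 0.041) and ZNF317 in HEK293T (-0.18, adjusted p = 0.047). The SE at 4 h was 0.07 for ZNF317 and 0.24 for ZNF43 and for ZNF382.

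Between DMSO at 4 h and DMSO at 24 h more members were lower than higher at 24 h without GC correction. At an adjusted p of at most 0.05, 9 members were higher at 24 h and 28 lower, that is 4.62% and 14.4%, where 21% of all genes were higher and 21.6% lower. Past both thresholds 1 was higher and 2 lower, against 3.48% and 0.664%. Library sizes without TMM gave 8 higher and 54 lower, with a median of -0.25 where that of all genes moved to -0.14, DESeq2 size factors gave 11 and 21, the 6 compared libraries alone 7 and 11, and leaving out DMSO 4 h replicate 3 gave 7 and 17 (17.1% and 17% of all genes). With GC content corrected more were higher than lower, 19 against 13, with a median of -0.02. Of all genes, 15.2% were higher and 32.9% lower without TMM, 22.9% and 19.1% with DESeq2 size factors, 17.6% and 14.7% with the compared libraries alone, and 21.8% and 19.8% with GC content corrected. A log2FC below 0 was found for 124 members, where the median of all genes also lay just below 0. The libraries did not overlap for 17 higher and 39 lower members (22.7% and 22.9% of all genes). This comparison shares its DMSO libraries with the tunicamycin comparisons in OCI-AML3, so that a high or low DMSO library moves both, in opposite directions where it is the 24 h control.

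ZNF146, a protein made of little but fingers, had 92.7, 115 and 134 CPM at 4 h and 88.9, 82.3 and 75.6 CPM at 24 h, each 24 h library below every 4 h library (log2FC -0.47, SE 0.12, adjusted p = 0.0024). ZNF235 had 6.11, 4.80 and 4.98 against 3.44, 3.53 and 2.39 CPM (log2FC -0.75, SE 0.16, adjusted p = 0.00069). ZNF507 had 21.1, 32.0 and 30.8 against 18.7, 20.1 and 14.7 CPM (log2FC -0.65, SE 0.15, adjusted p = 0.0017). ZNF583 had a log2FC of -0.65 (SE 0.17, adjusted p = 0.0038). The groups of ZNF235 and ZNF507 did not overlap either. With GC content corrected these falls were smaller, at -0.24 for ZNF146, -0.59 for ZNF235, -0.43 for ZNF507 and -0.42 for ZNF583, each still past the test (adjusted p 0.0055 to 0.046). Upwards, ZNF358 went from 17.8, 18.2 and 18.9 CPM to 31.5, 34.6 and 33.0 CPM (log2FC 0.85, SE 0.10, adjusted p = 4.9e-07), and ZNF653 had 0.62 (SE 0.16, adjusted p = 0.0038). After the correction these were 0.62 and 0.42 (adjusted p = 1.6e-07 and 0.035).

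The members past 2-fold between the DMSO times were all faint. ZNF577 had 0.465, 1.66 and 1.32 CPM at 4 h and 0.645, 0.0666 and 0.308 CPM at 24 h, with overlap (log2FC -1.77, SE 0.56, adjusted p = 0.014). ZNF30 had 0.864, 1.47 and 1.66 CPM against 0.645, 0.200 and 0.616 CPM (log2FC -1.48, SE 0.45, adjusted p = 0.011), and ZNF114 had 1.40, 0.768 and 0.458 CPM against 1.29, 1.73 and 2.39 CPM, with overlap (log2FC 1.06, SE 0.38, adjusted p = 0.030). Each call was lost with single libraries left out: ZNF577 without replicate 2 of either time (adjusted p 0.076 and 0.085), ZNF30 without DMSO 4 h replicate 3 or DMSO 24 h replicate 2 (0.056 and 0.077), and ZNF114 without replicate 2 or 3 of either time (0.054 to 0.164). ZNF846 (log2FC 0.82, adjusted p = 0.022) was lost without DMSO 4 h replicate 2 or DMSO 24 h replicate 1 or 3 (0.054 to 0.101).

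DMSO and 4 h of culture, which change together against untreated cells at 0 h, were not seen to move the members. Against untreated cells 0 members passed an adjusted p of at most 0.05 with edgeR (lowest adjusted p 0.448), limma voom (0.454) or DESeq2 (0.283), with 13, 12 and 10 members at an unadjusted p under 0.05, and 0% of all genes passed with edgeR. The median log2FC of the members was 0.03, and the libraries did not overlap for 12 higher and 4 lower members (5.44% and 5.22% of all genes).

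Single libraries moved as a whole within groups, as the plot of library medians shows. The median deviation of the members from their line's mean was 0.01, -0.22 and 0.05 in untreated replicates 1 to 3, -0.14, 0.06 and 0.04 in DMSO at 4 h, and 0.09, 0.13 and 0.18 in tunicamycin at 4 h. It was -0.10, -0.10 and -0.12 in DMSO at 24 h and 0.04, 0.02 and 0.22 in tunicamycin at 24 h. In HEK293T it was -0.07, -0.07 and -0.02 in DMSO and 0.03, 0.05 and 0.06 in tunicamycin. The treated libraries lay above their DMSO libraries in each of the 3 comparisons, but narrowly at 4 h in OCI-AML3 (0.09 against 0.06 for the nearest libraries) and in HEK293T (0.03 against -0.02), and the low untreated replicate 2 and DMSO 4 h replicate 1 lie as far from their groups as a treatment moves the members. Without DMSO 4 h replicate 1 the median at 4 h was 0.09, with 44 members higher and 17 lower, where 19.1% and 17.3% of all genes were.

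**Figure D3:**
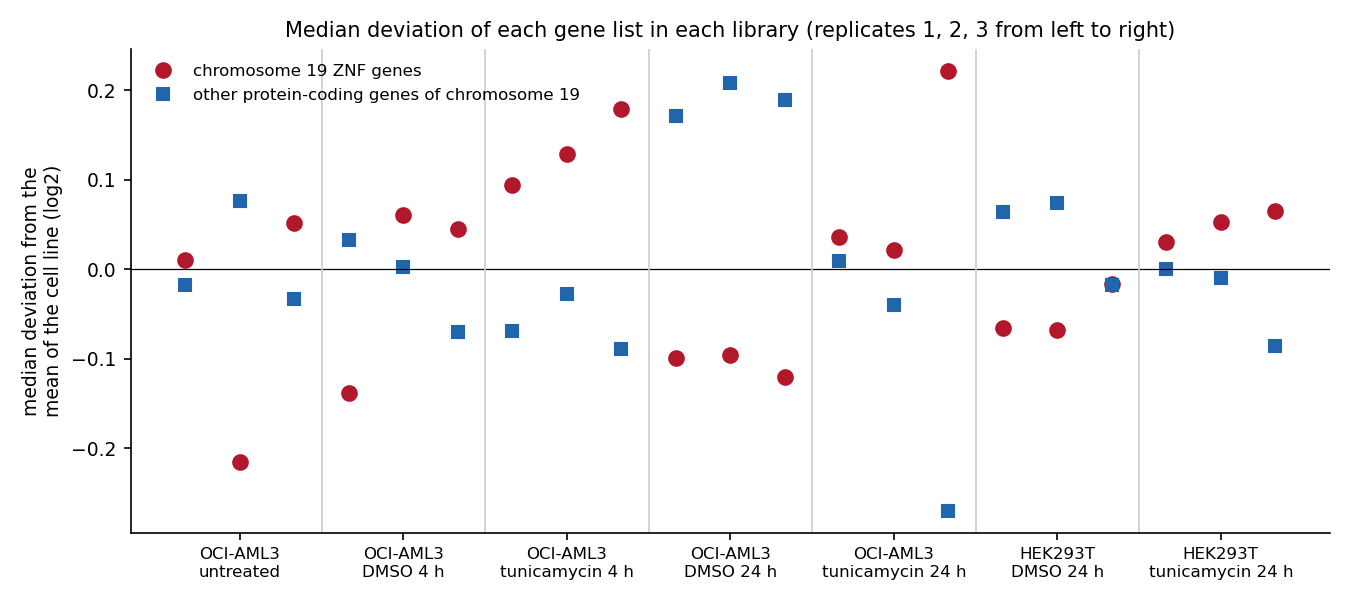
Median over genes of the log2 deviation of each library from the mean of its cell line, for the 195 chromosome 19 ZNF genes (red circles) and the other 716 protein-coding genes of the chromosome (blue squares), replicates 1 to 3 from left to right. The members are lowest in untreated replicate 2 (-0.22) and highest in tunicamycin 24 h replicate 3 (0.22), where the other genes of the chromosome are at -0.27.

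GC content moved with the values of OCI-AML3 at 24 h and between the DMSO times. Member transcripts had a median GC content of 42.5%, against 49.0% for all genes tested, 45.3% for the 215 ZNF genes on other chromosomes and 60.9% for the 716 other protein-coding genes of chromosome 19. In DMSO at 24 h the GC-richest 25% of all genes exceeded the GC-poorest 25% by 0.33, 0.36 and 0.43 in log2 deviation, and in tunicamycin at 24 h by 0.16, 0.03 and -0.30, so these groups also differ in GC dependence. The GC-rich other genes of chromosome 19 had medians of -0.04, -0.29, -0.05 and 0.20 in the 4 comparisons, opposite to the members, and the ZNF genes elsewhere 0.07, 0.07, 0.03 and -0.12. Among the members themselves Pearson's r of GC content and log2FC across genes, which are no independent replicates, was 0.01 at 4 h, -0.42 at 24 h, -0.11 in HEK293T and 0.32 between the DMSO times.

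Removing a smooth trend of each library on GC content left member medians of 0.12, 0.10, 0.07 and -0.02. At an adjusted p of at most 0.05 53 members were then higher and 25 lower at 4 h, or 27.2% and 12.8%, where 20.3% and 21.8% of all genes were. At 24 h 43 were higher and 10 lower, or 22.1% and 5.13% against 23.7% and 26.8% of all genes. In HEK293T 13 were higher and 6 lower, or 6.67% and 3.08% against 13.4% and 17.7%. Between the DMSO times 19 and 13 were, or 9.74% and 6.67% against 21.8% and 19.8%. Of the members called without the correction, 49 of 50 higher and 14 of 14 lower stayed called at 4 h, 39 of 56 and 7 of 12 at 24 h, 10 of 10 and 2 of 2 in HEK293T, but 8 of 9 and only 8 of 28 between the DMSO times. Among the genes named by rule, 7 calls at 24 h in OCI-AML3 were lost: ZNF83 (corrected log2FC 0.36, adjusted p = 0.093), ZNF222 (0.42, 0.082), ZNF225 (0.26, 0.16), ZNF507 (0.21, 0.17), ZNF550 (0.34, 0.054), ZNF653 (-0.29, 0.12) and ZNF444 (-0.02, 0.87). Between the DMSO times 2 were lost (ZNF274 and ZNF582). Calls gained numbered 4 at 4 h, 2 at 24 h, 3 in HEK293T and 4 between the DMSO times. Whether GC dependence arose in the cells or in library preparation was not tested.

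**Figure D4:**
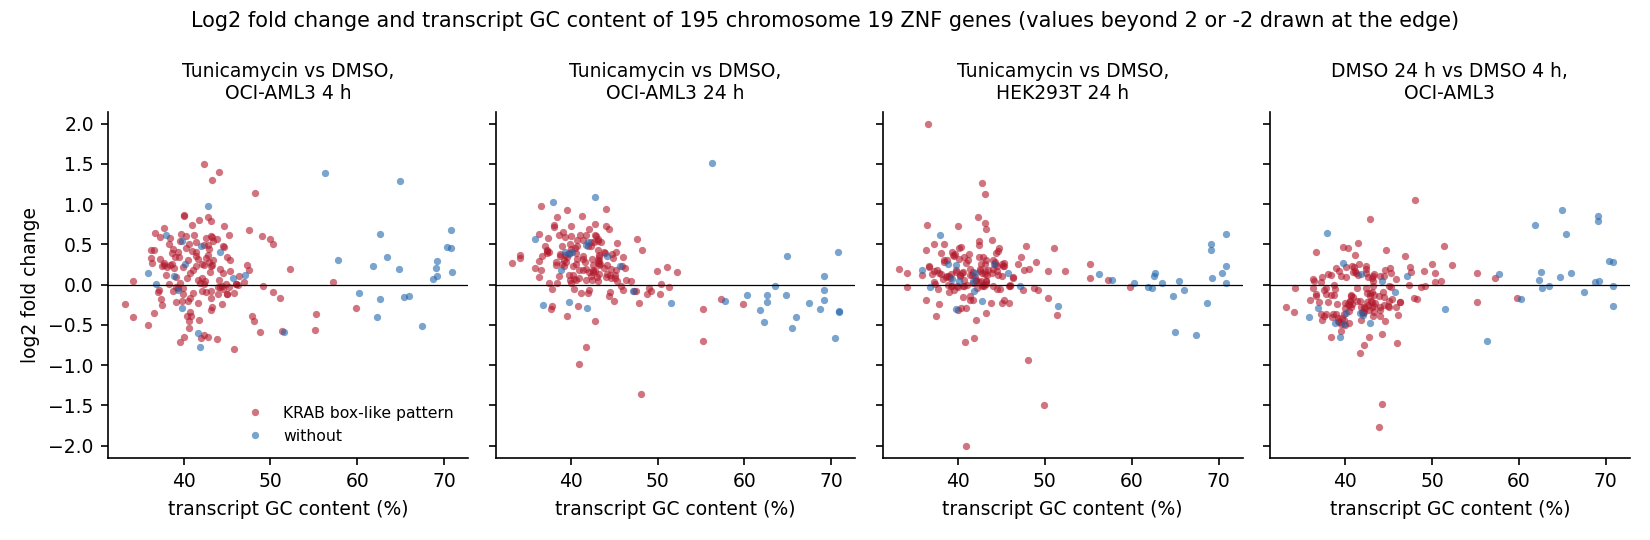
Log2 fold change of each of the 195 members against the GC content of its transcript (%), with a KRAB box-like pattern in red and without in blue. At 24 h in OCI-AML3 the GC-poor members lie mostly above 0 and the GC-rich ones below, and between the DMSO times the order is turned.

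Split by GC content into 3 parts at 40.7 and 44.3%, members had a median at 24 h in OCI-AML3 of 0.35 in the lowest part, 0.30 in the middle and -0.07 in the highest, and after the correction 0.12, 0.19 and 0.04. At 4 h it was 0.20, 0.23 and 0.08, and after the correction 0.12, 0.18 and 0.10. The 158 members with a KRAB box-like pattern had medians of 0.15, 0.25, 0.13 and -0.14 in the 4 comparisons, and the 37 without, whose median GC content was 60.2%, had 0.16, -0.12, 0.05 and 0.03. Corrected for GC content the values were 0.11, 0.13, 0.07 and 0.00 with the pattern and 0.20, 0.08, 0.07 and -0.12 without. At 4 h 37 members with the pattern were higher and 9 lower (23.4% and 5.70%), and 13 without it were higher and 5 lower (35.1% and 13.5%), where 18.5% and 18.9% of all genes were.

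Members with at most 10 fingers had a median of 0.20 at 4 h, those with 11 to 14 had 0.18 and those with over 14 had 0.10, and after GC correction the values were 0.17, 0.14 and 0.02. At 24 h they were 0.21, 0.23 and 0.21, and after the correction 0.15, 0.08 and 0.09. The 80 members with CCGGAAG in the promoter had 0.16, 0.25, 0.13 and -0.04 in the 4 comparisons and the 94 without 0.12, 0.20, 0.08 and -0.16. After GC correction the values were 0.14, 0.12, 0.08 and 0.04 with these letters and 0.08, 0.09, 0.06 and -0.08 without. At 4 h 20 members with these letters were higher and 1 lower (25% and 1.25%), against 26 and 12 without (27.7% and 12.8%), where 18.5% and 18.9% of all genes were. At 24 h in OCI-AML3 26 were higher and 4 lower with the letters (32.5% and 5%) against 25 and 5 without (26.6% and 5.32%), with 23.5% and 27.7% of all genes. In HEK293T they were 5 and 0 (6.25% and 0%) against 4 and 1 (4.26% and 1.06%), with 12.6% and 13.1% of all genes. Between the DMSO times they were 4 and 10 (5% and 12.5%) against 3 and 14 (3.19% and 14.9%), with 21% and 21.6% of all genes. For GGGCGG the 24 h counts in OCI-AML3 were 28 and 7 with it (24.6% and 6.14%) against 23 and 2 without (38.3% and 3.33%). For CCAAT they were 24 and 2 (25.3% and 2.11%) against 27 and 7 (34.2% and 8.86%). The 21 members with TGACGT had 0.19 at 4 h, 0.18 at 24 h and 0.11 in HEK293T, against 0.14, 0.24 and 0.12 in the 153 without. After GC correction the values were 0.20, 0.14 and 0.11 with these letters and 0.12, 0.09 and 0.06 without. The order at 24 h and in HEK293T thus turned with the correction.

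By position the members fall into 16 runs, in which neighbouring ZNF genes start within 1 Mb of each other. At 4 h the highest median of a run with at least 3 members was 0.37, in the 22 members from ZNF565 to ZNF573, and the lowest -0.07, in the 21 from ZNF653 to ZNF791. The ZNF565 to ZNF573 run also had 0.28 at 24 h and 0.22 in HEK293T, and after GC correction 0.28, 0.16 and 0.16. At 24 h ZNF546, ZNF780B and ZNF780A, a run of 3 chosen after its values were seen, had 0.74 (adjusted p = 0.012), 0.71 (adjusted p = 0.0078) and 0.49 (adjusted p = 0.027), and after GC correction 0.51 (0.033), 0.48 (0.020) and 0.28 (0.097). The 22 members from ZNF101 to ZNF254, the GC-poorest large run at a median of 37.0%, had 0.20, 0.31 and 0.11 and after GC correction 0.12, 0.07 and 0.02. The 49 members from ZNF628 to ZNF446 near the end of the long arm had 0.16, 0.09 and 0.14, and 0.18, 0.07 and 0.13 after the correction.

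**Figure D5:**
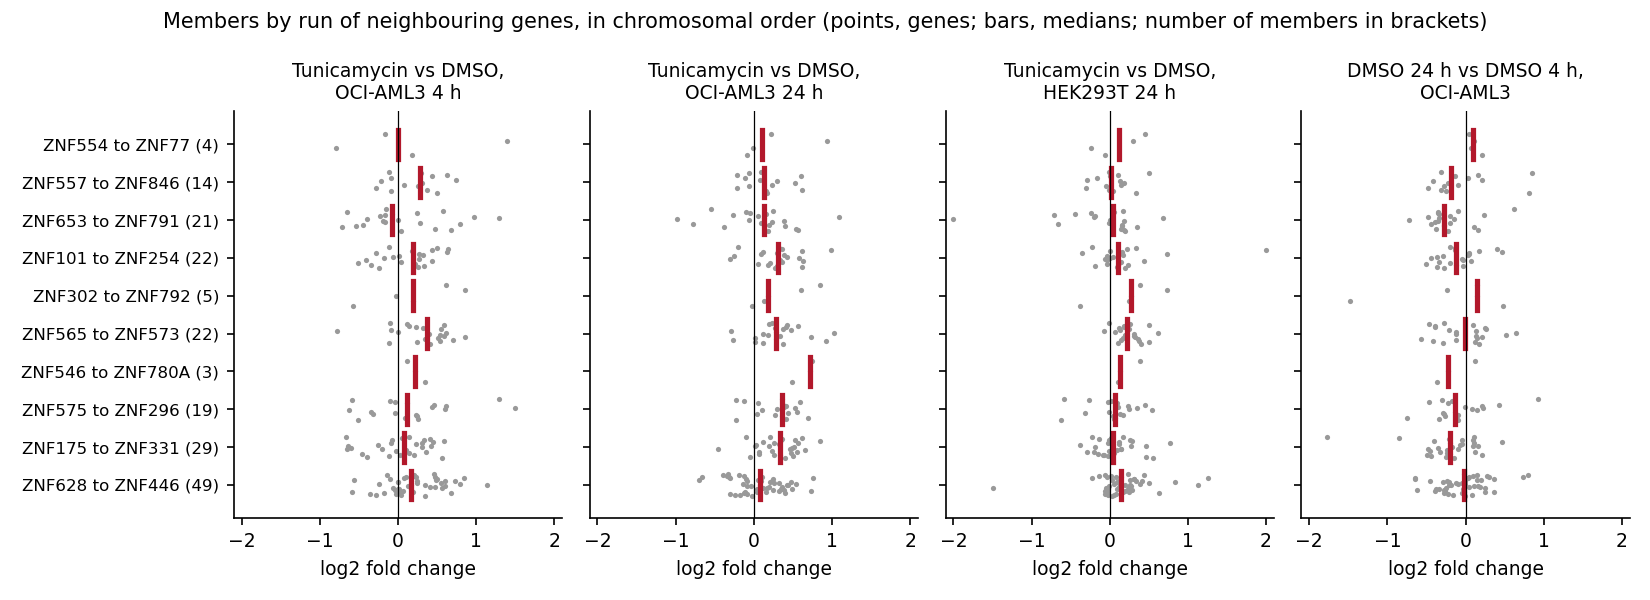
Log2 fold change of each member (points) and median (bars) by run of neighbouring ZNF genes, for runs with at least 3 members, in chromosomal order from top to bottom. The ZNF565 to ZNF573 run has medians of 0.37, 0.28 and 0.22 in the tunicamycin comparisons. Each run except that of ZNF546, ZNF780B and ZNF780A holds members on both sides of 0 in at least 1 tunicamycin comparison.

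The partners of KRAB proteins were called lower more often than higher. Of 27 cofactors and heterochromatin proteins, a list chosen with results of these data known, 2 were higher and 13 lower at 4 h, 4 and 15 at 24 h, 1 and 8 in HEK293T and 2 and 9 between the DMSO times. The lower ones were 48.1, 55.6, 29.6 and 33.3% of the list, against 18.9, 27.7, 13.1 and 21.6% of all genes, and the higher ones 7.41, 14.8, 3.70 and 7.41%, against 18.5, 23.5, 12.6 and 21%. The medians were -0.17, -0.20, -0.13 and -0.15, and 0 passed 2-fold. With GC content corrected 2 were higher and 13 lower at 4 h, 4 and 16 at 24 h, 0 and 10 in HEK293T and 0 and 9 between the DMSO times, with medians of -0.19, -0.19, -0.15 and -0.07. TRIM28, the scaffold itself and also a gene of chromosome 19, had 0.07 at 4 h (adjusted p = 0.56) and fell at 24 h in OCI-AML3 (log2FC -0.63, adjusted p = 1.5e-06) and in HEK293T (-0.39, adjusted p = 0.0011). SETDB1 rose at 4 h (0.22, adjusted p = 0.0074) and fell at 24 h (-0.23, adjusted p = 0.0042). The DNA methyltransferase gene DNMT3B fell in all 3 (-0.45, -0.88 and -0.70, adjusted p at most 0.00061), as did UHRF1, which guides maintenance methylation (-0.45, -0.22 and -0.35, adjusted p at most 0.010), and the histone methyltransferase gene SUV39H1 fell in OCI-AML3 (-0.40 and -0.82, adjusted p = 3.7e-05 and 1.3e-09). MPHOSPH8 and TASOR, both of the HUSH silencing complex, rose at 24 h in OCI-AML3 (0.48 and 0.44, adjusted p = 5.7e-05 and 0.0049), whereas PPHLN1 of the same complex, named after its values were seen, fell there (-0.20, adjusted p = 0.025) and in HEK293T (-0.31, adjusted p = 0.0020). SMARCAD1 rose at 24 h in OCI-AML3 by more (0.49, adjusted p = 0.012), and EHMT2 fell there (-0.54, adjusted p = 1.9e-05). CBX5 fell at 4 h (-0.30, adjusted p = 0.0062) and rose at 24 h in OCI-AML3 (0.21, adjusted p = 0.036) and in HEK293T (0.27, adjusted p = 0.017). SMARCAD1, EHMT2 and CBX5 were named after their values were seen. ATF7IP, a partner of SETDB1, rose at 4 h (0.49, adjusted p = 0.0022).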

How the data were processed

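Poly(A) RNA of 21 libraries was sequenced in pairs. The authors aligned reads with STAR and deposited expected counts per Ensembl gene from RSEM, which shares reads of near-identical genes out by estimation. The build was GRCh38, and the use of strand in counting is not given in the sources used here. Values were rounded to whole counts. Genes with at least 1 CPM in 8 libraries were scaled by TMM and fitted with 7 group means in edgeR 4.0.16 (quasi-likelihood test, R 4.3.3), with Benjamini-Hochberg adjustment over all 14012 genes. A gene past both thresholds had an adjusted p of at most 0.05 and an absolute log2 fold change over 1. Differences between effects were interaction terms of the same fit. The script was tested on simulated data. The members and gene lists were chosen with earlier results of these data known.

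Chromosome, strand, transcript length, GC content, fingers and the KRAB box-like pattern came from GENCODE release 44 (99.7% of tested genes matched), and promoters from RefSeq (GRCh38.p14). Genes named were, by rule, the 5 largest falls and 3 largest rises at an adjusted p of at most 0.05 in each of 4 comparisons, members past both thresholds in 2 or more, the 3 largest interactions in each direction, the 3 highest levels per kb in each line, and 9 members of known role. Among cofactors TRIM28 and SETDB1 were named, with others of the list that are not in every case those farthest from 0. Alternatives were limma 3.58.1 voom, DESeq2 1.42.0, its size factors in edgeR, no TMM, other filters, the compared groups alone, a replicate block, GC and length corrections (lowess, span 0.3), members numbered with digits alone, and each library left out. A further pair of alternatives was chosen after seeing the data, GC and length corrected together, and members with at most 4 values not whole. No library pair was identical. Figures were drawn with matplotlib 3.10.9.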

Additional observations from a re-analysis of the deposited data

Results flagged for a closer look

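Each gene here was singled out because its tunicamycin effect differed by an interaction term (edgeR's quasi-likelihood test, adjusted p of at most 0.05) between times in OCI-AML3 or between cell lines at 24 h. The values are differences of log2 fold changes.

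From 4 h to 24 h the effect became lower in 7 of the members named by rule. The differences were -1.57 for ZNF442, -1.16 for ZNF433, -1.13 for ZNF787, -0.97 for ZNF222, -0.71 for ZNF773, -0.38 for ZNF444 and -0.36 for ZNF358. It became higher in 6 of them, by 1.10 for ZNF83, 0.93 for ZNF443, 0.90 for ZNF224, 0.78 for ZNF57, 0.60 for ZNF235 and 0.48 for ZNF8. Of these, ZNF433 and ZNF222 lost the call without DMSO 24 h replicate 3, and ZNF8, ZNF235, ZNF358 and ZNF444 lost it with each of several single libraries left out. After GC correction 10 of the 13 kept the call. It was lost for ZNF358 (-0.16, adjusted p = 0.18), ZNF444 (-0.18, adjusted p = 0.12) and ZNF235 (0.55, adjusted p = 0.054). Among the members named by rule, ZNF296 (0.47, adjusted p = 0.026) and ZNF555 (-0.49, adjusted p = 0.030) gained a call with the correction.

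Between the lines (HEK293T minus OCI-AML3) the difference was -1.39 for ZNF536, -0.76 for ZNF225, -0.75 for ZNF320, -0.64 for ZNF555 and -0.63 for ZNF235. It was 0.96 for ZNF71, 0.80 for ZNF787, 0.70 for ZNF473, 0.70 for ZNF550 and 0.57 for ZNF358. ZNF225, ZNF235, ZNF320 and ZNF550 lost the call with each of several single libraries left out. All 10 kept the call with GC content corrected, and the difference of ZNF358 was smaller, at 0.33 (adjusted p = 0.0071). Calls were gained there for ZNF296 (-0.62, adjusted p = 0.011) and ZNF85 (0.79, adjusted p = 0.043).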

How the results depend on the processing

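Low counts, reads shared between related genes and 3 libraries a group limit these results. Of 90 calls of named genes, 51 were kept under every alternative, 39 were lost under at least 1, and 1 changed sign: ZNF444 at 24 h, which was 0.0285 with GC and length corrected.

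At 4 h the median was 0.0405 with no filter beyond 1 count, and 3 members passed both thresholds among those with at most 4 values not whole. At 24 h in OCI-AML3 the members past both thresholds were 7 without TMM and 2 each with GC corrected, with GC and length corrected, and with at most 4 values not whole. For all counts past both thresholds in this section, the share of all genes under the same setting is not given. Their changes therefore do not describe the members alone. The median there was 0.10 with GC and 0.0798 with GC and length corrected. In HEK293T the members at an adjusted p of at most 0.05 were 35 with the compared groups alone, where 20.9% of all genes were higher and 20.4% lower. They were 19 with GC corrected (13.4% and 17.7% of all genes) and 21 with GC and length corrected (14.8% and 20%). With DESeq2 12 were higher and 4 lower (6.15% and 2.05%, against 13.1% and 13.8% of all genes). Between the DMSO times they were 62 without TMM, where 15.2% of all genes were higher and 32.9% lower. With the compared groups alone they were 18 (17.6% and 14.7% of all genes), of which 1 passed both thresholds. The median there was -0.25 without TMM (-0.14 for all genes), -0.0242 with GC corrected and, reversed, 0.0114 with GC and length corrected. DESeq2's own test left 5 effects higher and 14 lower between lines (2.56% and 7.18% of the members, against 14.2% and 13% of all genes).

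With each library left out in turn, members past both thresholds numbered 5 to 8 at 4 h, 2 to 8 at 24 h, 2 to 3 in HEK293T, 0 to 3 between the DMSO times and 0 to 0 for DMSO against untreated. Those at an adjusted p of at most 0.05 numbered 54 to 61, 42 to 78, 7 to 13, 24 to 49 and 0 to 0, and the medians ran from 0.09 to 0.20, 0.20 to 0.33, 0.09 to 0.14, -0.16 to -0.09 and -0.0035 to 0.0826. The last of these turned below 0 without DMSO 4 h replicate 3. Differences between times numbered 26 to 46 and between lines 10 to 24, where 35.3% and 26.8% of all genes differed with all libraries. The share of all genes called also moved when a library was left out, as given above for single libraries. The ranges of calls therefore do not describe the members alone.

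Samples with the same replicate number did not deviate together (correlations of -0.139 to 0.199), so the numbers do not pair the libraries. With a replicate block the members at an adjusted p of at most 0.05 were 64 at 4 h, 71 at 24 h, 15 in HEK293T, 40 between the DMSO times and 0 for DMSO against untreated, and the medians were 0.16, 0.22, 0.12, -0.12 and 0.04. Those past both thresholds were 6, 3, 2, 3 and 0, with no share of all genes given for this setting. The interactions were 35 between times (15.7% higher and 21.2% lower of all genes) and 21 between lines (17% and 11.4%). By direction those at an adjusted p of at most 0.05 were 48 higher and 16 lower at 4 h (19% and 19.6% of all genes), 58 and 13 at 24 h (23.6% and 28.1%), 11 and 4 in HEK293T (13.2% and 13.8%) and 10 and 30 between the DMSO times (21.7% and 22.3%).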
